A study of Homo sapiens with 8 samples.

Results

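The gene group described here holds 46 genes of the endoplasmic reticulum (ER): chaperones, enzymes of glycoprotein folding, the translocon and the sensors of the unfolded protein response (UPR). The members were selected by name, on a list drawn up from changes against the siNC mean in these same libraries, with *GANAB* on it because it was raised in every knockdown. Values against siNC are therefore given as a description and support no claim of their own, whereas the difference between siHHEX and siYAP/TAZ was not used to choose the list, although it rests on the same knockdown libraries. Of the 20030 rows in each library, 45 members were found by name and 1 by a RefSeq synonym, *ERO1LB* as *ERO1B*. A level is given in FPKM, fragments scaled to transcript length and to the size of the library, and 44 members passed the filter for testing, at least 1 FPKM in at least 2 of the 8 libraries.

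The 8 libraries were made from RNA of the colorectal carcinoma line HCT-116 after transfection with small interfering RNAs (siRNAs). Of the 4 groups, siNC and siYAP/TAZ had 2 libraries each, the first with the control siRNA and the second with siRNAs against *YAP1* and *WWTR1*, the gene of TAZ. The group siHHEX, with siRNAs against the homeobox gene *HHEX*, had 3 libraries, and siTEAD1/2/3/4, with 1 siRNA against *TEAD1*, *TEAD3* and *TEAD4* and 1 against *TEAD2*, had 1 library and hence no replicate check. All groups share the cell line and carry no other stated treatment. The study's methods list 3 *HHEX* siRNAs and 2 pairs against *YAP1* and *WWTR1*, as many as the libraries of these groups, so that the spread between libraries can include the spread between siRNAs. The deposited record of siHHEX 3 is numbered apart from those of all other libraries, with no control library beside it. Whether it was prepared with the others is not stated, and any such difference cannot be told apart from the siHHEX comparisons. Nothing in the labels says that the libraries came from separate cultures, and p-values then measure only the spread between these libraries. In bulk RNA, fewer cells that express a gene and less RNA of it per cell cannot be told apart.

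The targeted genes were lower in the libraries named for them, with 1 exception. *HHEX* stood at 8.60 and 9.06 FPKM in siNC, 3.25, 3.54 and 1.85 FPKM in siHHEX, 4.80 and 7.12 FPKM in siYAP/TAZ and 7.75 FPKM in siTEAD1/2/3/4. *YAP1* stood at 20.2 and 19.7 FPKM in siNC, 5.77, 17.4 and 6.93 FPKM in siHHEX, 6.90 and 8.39 FPKM in siYAP/TAZ and 22.6 FPKM in siTEAD1/2/3/4. *WWTR1* stood at 6.80 and 6.72 FPKM in siNC, 5.12, 6.12 and 8.55 FPKM in siHHEX, 2.64 and 2.58 FPKM in siYAP/TAZ and 6.84 FPKM in siTEAD1/2/3/4. *HHEX* was thus below both siNC libraries in siYAP/TAZ too, and *YAP1* in siHHEX, whereas *WWTR1* was below them in siHHEX 1 and 2 and above them in siHHEX 3. *TEAD1* stood at 18.3 and 19.0 FPKM in siNC, 6.99, 10.2 and 5.30 FPKM in siHHEX, 16.4 and 16.1 FPKM in siYAP/TAZ and 9.02 FPKM in siTEAD1/2/3/4, so that siHHEX 1 and 3 lay below the library in which it was targeted. *TEAD2* stood at 4.10 and 3.47 FPKM in siNC, 6.495, 8.02 and 7.18 FPKM in siHHEX, 5.54 and 6.32 FPKM in siYAP/TAZ and 2.73 FPKM in siTEAD1/2/3/4. *TEAD4* stood at 20.3 and 21.3 FPKM in siNC, 17.6, 19.5 and 20.8 FPKM in siHHEX, 12.5 and 13.6 FPKM in siYAP/TAZ and 5.56 FPKM in siTEAD1/2/3/4. *TEAD3* was the exception, at 7.36 and 6.99 FPKM in siNC, 9.42, 8.06 and 9.67 FPKM in siHHEX, 7.75 and 8.07 FPKM in siYAP/TAZ and 9.08 FPKM in siTEAD1/2/3/4, above siNC in every knockdown library. The part of these levels in the results below was not tested. Epithelial markers were present, with *EPCAM* at 174 FPKM and *KRT8* at 1591 FPKM in siNC 1, while *CEACAM5* and *VIL1* were under 0.04 FPKM and *CDX1* was listed at 0 in every library. Blood markers such as *PTPRC* reached at most 0.101 FPKM in any library, and the fibroblast collagen gene *COL1A1* at most 2.04 FPKM.

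Proteins that enter the ER are threaded through the Sec61 translocon with help of the TRAP complex, and the oligosaccharyltransferase transfers a glycan to them. Glucosidases I and II trim that glycan, which lets the lectins calnexin and calreticulin hold the protein until it has folded, and UGGT1 returns unfolded glycoproteins to this cycle. The HSP70 chaperone BiP (gene *HSPA5*), the HSP90 chaperone GRP94 (gene *HSP90B1*) and protein disulfide isomerases help in the folding, and proteins that fail are sent back to the cytosol for degradation. When unfolded proteins build up, the sensors IRE1 (*ERN1*), PERK (*EIF2AK3*) and ATF6 start the UPR, in which ATF6 and the spliced form of XBP1 switch on chaperone genes through ER stress elements in their promoters.

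The stress elements were present in the promoters of several members, and the sequences are shown because their genes went in both directions below. RefSeq promoters (GRCh38.p14), 250 bases before to 50 bases after each start, were held for 40 of the 46 members and 35116 promoters in all, and were searched on both strands. The ER stress element ERSE, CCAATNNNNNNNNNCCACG, was found in 7 of the 40 members (17.5%) and in 0.0769% of all promoters. Each line below gives the gene, with the element in capitals on the gene's strand.
CALR: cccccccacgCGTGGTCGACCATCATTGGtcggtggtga
CANX: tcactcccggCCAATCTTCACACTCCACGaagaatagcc
CRELD2: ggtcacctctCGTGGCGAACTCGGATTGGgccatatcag
HSPA5: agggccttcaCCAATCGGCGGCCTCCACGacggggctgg
XBP1: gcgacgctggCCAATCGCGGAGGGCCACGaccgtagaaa
HERPUD1: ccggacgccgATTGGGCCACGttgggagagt
SDF2L1: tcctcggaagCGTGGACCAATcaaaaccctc

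In build GRCh38.p14 these stretches lay upstream of the start at chr19:12938374-12938412 (*CALR*, plus strand), chr5:179698768-179698806 (*CANX*, plus), chr22:49918544-49918582 (*CRELD2*, plus), chr9:125241381-125241419 (*HSPA5*, minus), chr22:28800593-28800631 (*XBP1*, minus), chr16:56932015-56932045 (*HERPUD1*, plus) and chr22:21642104-21642134 (*SDF2L1*, plus). *HSP90B1*, with 2 elements, and *ERO1B* were the other members with an ERSE. The second form, ERSE-II, ATTGGNCCACG, is the one shown for *HERPUD1* and *SDF2L1*, and with *HYOU1*, which had 2, it was found in 7.5% of the member promoters and 0.0541% of all promoters. The motif UPRE, TGACGTGG, was found in *DNAJC10* and in *HYOU1*, where it overlaps an ERSE-II, which made 5% of the member promoters against 0.729% of all. A match describes the letters in this window and is no evidence of binding. The shares are no test, since the list was made of ER genes, among them chaperone genes that such elements serve. They also set 1 promoter per member beside all promoters held, without picking 1 per gene. In all, 11 members had at least 1 of these motifs, and 10 of them passed the filter.

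The members were abundant transcripts. Their median level in siNC was 38.5 FPKM, against 7.34 FPKM for all 10677 tested genes, and 20 of the 44 lay in the highest of 10 equal bins of mean expression. Together the 46 genes held 0.866% and 0.868% of all FPKM in siNC, between 0.824% and 0.922% in siHHEX, 0.983% and 0.901% in siYAP/TAZ and 0.914% in siTEAD1/2/3/4. The group as a whole thus kept a similar share of the RNA, while its members moved apart. In the log2 change from the siNC mean, the interquartile range of the members was 0.69, 0.48 and 0.86 in siHHEX 1, 2 and 3, 0.29 and 0.28 in siYAP/TAZ 1 and 2, and 0.22 in siTEAD1/2/3/4. The same range over all tested genes was 0.67, 0.49 and 0.82, then 0.40 and 0.51, then 0.37. In siHHEX the members were therefore spread as widely as all tested genes, and in the other knockdowns less widely. No such range was taken for genes of similar expression, and the part of the members' abundance in this was not tested.

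**Figure D1:**
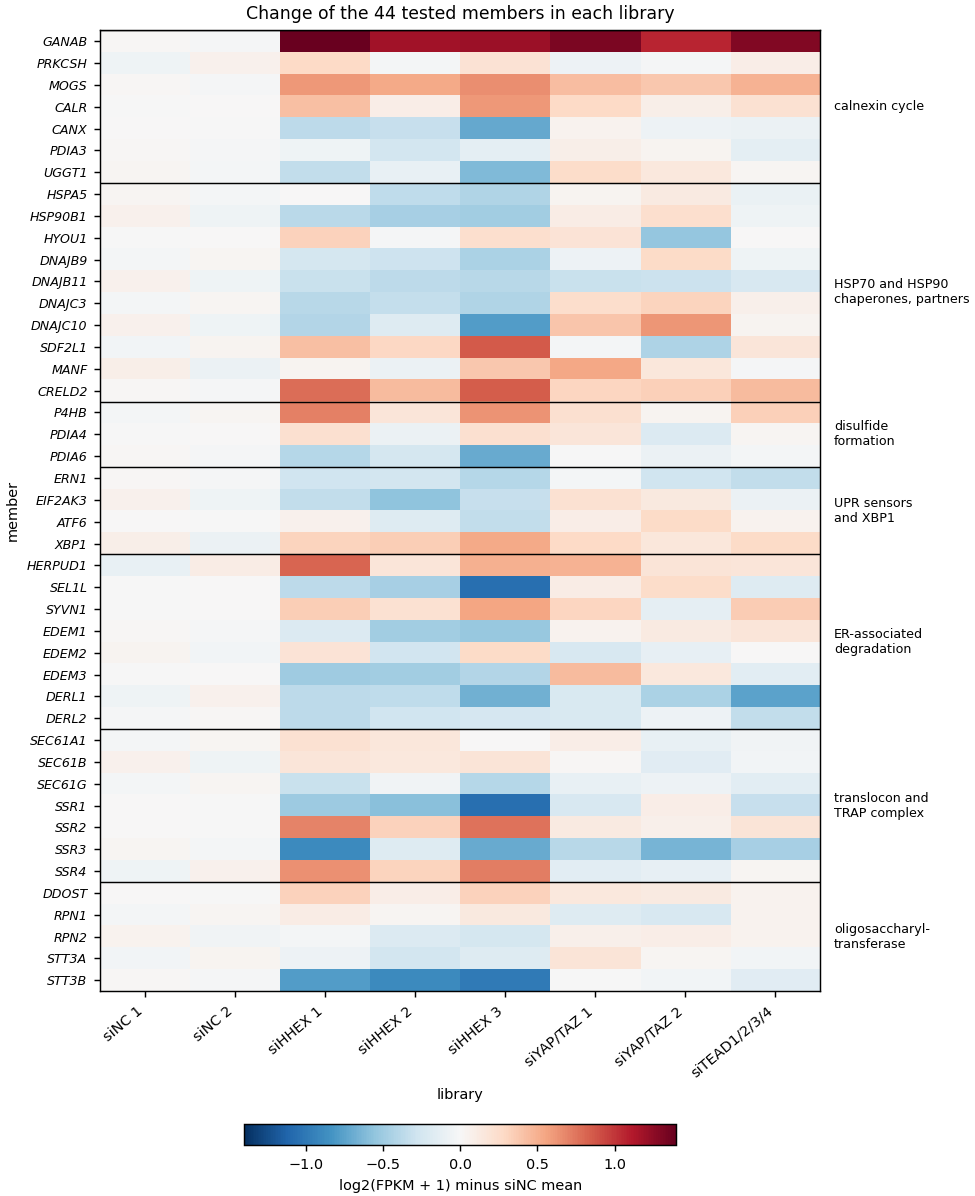
Log2(FPKM + 1) of the 44 tested members minus the siNC mean, 1 row per member ordered by role and 1 column per library, red for higher and blue for lower. *GANAB* at the top is red in all 6 knockdown columns, and the 3 siHHEX columns hold strong red and strong blue rows side by side within most roles.

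All changes from siNC shown here share the same 2 siNC libraries. In siHHEX, 7 of the 44 members were called higher (*GANAB*, *MOGS*, *CRELD2*, *P4HB*, *XBP1*, *SSR2*, *SSR4*) at an adjusted p under 0.05, where 16% of all tested genes were called higher. Another 12 were called lower (*CANX*, *HSP90B1*, *DNAJB11*, *DNAJC3*, *PDIA6*, *EIF2AK3*, *SEL1L*, *EDEM3*, *DERL1*, *SSR1*, *SSR3*, *STT3B*), where 16.9% of all tested genes were called lower. In siYAP/TAZ, *GANAB* was the 1 member called higher and no member was called lower, where 6.15% of the tested genes were called higher and 2.13% lower. At an unadjusted p under 0.05 in limma, 3 members were higher and 2 lower there. In siTEAD1/2/3/4, judged by a 1.5-fold difference without a test, *GANAB* was higher and *DERL1* lower, where 4.15% of the tested genes were over 1.5-fold higher and 2.18% over 1.5-fold lower. With each library divided by its median, the siHHEX split became 8 higher and 6 lower, where 20.6% and 13.7% of all tested genes were called. Without siNC replicate 1 or without siNC replicate 2, *GANAB* was the only member called in siHHEX, where 19 and 27 of all tested genes were called. Without siHHEX replicate 1 the calls were 4 higher and 7 lower, where 1140 of all tested genes were higher and 969 lower. For siYAP/TAZ, the *GANAB* call was lost without siNC replicate 2.

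*GANAB*, on chr11:62624826-62646726 (GRCh38, minus strand), encodes the catalytic subunit of glucosidase II. It stood at 37.4 and 36.3 FPKM in siNC, at 98.0, 84.3 and 85.9 FPKM in siHHEX, at 93.3 and 78.0 FPKM in siYAP/TAZ and at 91.7 FPKM in siTEAD1/2/3/4. Every knockdown library lay above both siNC libraries, and the knockdown groups overlapped with each other. The means were 243%, 233% and 249% of the siNC mean in siHHEX, siYAP/TAZ and siTEAD1/2/3/4. By the gap between the lowest knockdown library and the higher siNC library, 1.04 on the log2 scale, *GANAB* ranked 2 among the 10677 tested genes. It was put on the list for this same rise in these libraries, so the rank is a description only. Between siHHEX and siYAP/TAZ it differed by 0.06 in log2 (SE 0.12, adjusted p = 0.692), so that no difference between these knockdowns was detectable. *PRKCSH*, the gene of the regulatory subunit of the same enzyme, did not share this step, at 47.3 and 51.4 FPKM in siNC, 60.0, 48.4 and 57.1 FPKM in siHHEX, 46.8 and 48.8 FPKM in siYAP/TAZ and 52.9 FPKM in siTEAD1/2/3/4. For *PRKCSH* the siNC, siHHEX and siYAP/TAZ libraries overlapped. The ratio of *GANAB* to *PRKCSH*, taken within each library so that library scaling cancels, went from 0.791 and 0.705 in siNC to between 1.505 and 1.993 in the 6 knockdown libraries.

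**Figure D2:**
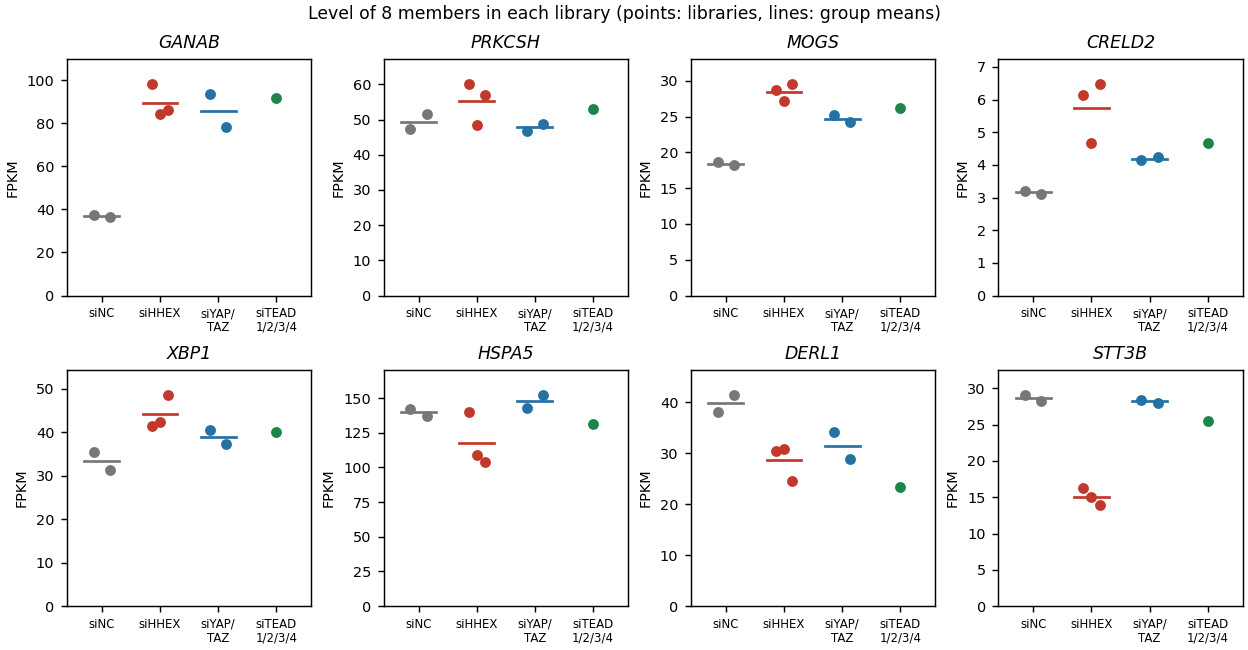
FPKM of 8 members in each library, on axes that start at 0, with points for libraries and lines for group means. The 6 knockdown libraries of *GANAB* sit between 78.0 and 98.0 FPKM, above the siNC libraries, and the 3 siHHEX libraries of *STT3B*, between 14.0 and 16.3 FPKM, lie below all other libraries.

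*MOGS*, the gene of glucosidase I, which removes the first glucose before glucosidase II acts, showed a smaller step in the same libraries. Its levels were 18.6 and 18.2 FPKM in siNC, 28.7, 27.1 and 29.5 FPKM in siHHEX, 25.3 and 24.2 FPKM in siYAP/TAZ and 26.2 FPKM in siTEAD1/2/3/4. No knockdown library overlapped siNC, and siHHEX lay above siYAP/TAZ, although that difference of 0.19 in log2 did not pass the test (SE 0.11, adjusted p = 0.179). In the gap ranking *MOGS* came at 210, with 0.36 on the log2 scale. Across the group, 9 members lay above both siNC libraries in all 6 knockdown libraries (*GANAB*, *MOGS*, *CALR*, *CRELD2*, *P4HB*, *XBP1*, *HERPUD1*, *SSR2*, *DDOST*), where 16.9% of all tested genes did. The 6 members that lay below both in all 6 were *DNAJB11*, *ERN1*, *DERL1*, *DERL2*, *SEC61G* and *SSR3*, where 10.3% of all tested genes did. After median scaling, 3 remained above (*GANAB*, *MOGS*, *CRELD2*) and 9 lay below, where 14.3% and 13.6% of all tested genes did. With the GC content and length correction 7 lay above (without *CALR*, *P4HB* and *DDOST*, and with *ATF6*) and 3 below (*DNAJB11*, *ERN1*, *DERL1*), where 15.5% and 11% of all genes did. Both alternatives were chosen after seeing the data.

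*CALR*, the gene of the soluble lectin calreticulin, stood at 311 and 315 FPKM in siNC, 418, 335 and 477 FPKM in siHHEX, 381 and 330 FPKM in siYAP/TAZ and 362 FPKM in siTEAD1/2/3/4. *CANX*, the gene of the membrane-bound lectin calnexin, stood at 123 and 121 FPKM in siNC and at 94.4, 97.2 and 73.7 FPKM in siHHEX, below all other libraries. The *CALR* to *CANX* ratio within a library was 2.53 and 2.60 in siNC, 4.43, 3.44 and 6.47 in siHHEX, 3.01 and 2.84 in siYAP/TAZ and 3.14 in siTEAD1/2/3/4, highest in the siHHEX libraries. *CALR* itself did not pass the test between siHHEX and siYAP/TAZ (0.19, SE 0.14, adjusted p = 0.290) but did without siHHEX replicate 2 (0.33, adjusted p = 0.0310), and after correction for GC content and transcript length, described below, the differences were -0.08 for *CALR* and -0.04 for *CANX*. *PDIA3*, the disulfide isomerase that works with both lectins, had 128 and 125 FPKM in siNC, 121, 106 and 115 FPKM in siHHEX, 134 and 130 FPKM in siYAP/TAZ and 115 FPKM in siTEAD1/2/3/4, with siHHEX below siYAP/TAZ by 0.21 in log2 (SE 0.10, adjusted p = 0.121). Both *CANX* (difference of -0.46, SE 0.13, adjusted p = 0.0238) and *UGGT1* (-0.56, SE 0.16, adjusted p = 0.0229) were lower in siHHEX than in siYAP/TAZ.

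The question of how the *HHEX* knockdown differed from the *YAP1* and *WWTR1* knockdown was addressed with siHHEX against siYAP/TAZ in the limma fit, with p-values adjusted over all 10677 tested genes. In this comparison 4 members were higher in siHHEX (*SDF2L1*, *SSR2*, *SSR4*, *RPN1*), against 13.5% of all tested genes, and 13 were lower (*CANX*, *UGGT1*, *HSP90B1*, *DNAJB9*, *DNAJC3*, *DNAJC10*, *PDIA6*, *EIF2AK3*, *SEL1L*, *EDEM1*, *EDEM3*, *SSR1*, *STT3B*), against 25.9%. The median difference was -0.15 in log2 over the members and -0.13 over all tested genes. Changes from siNC were also taken relative to the median of genes in the same expression bin. The members' median was then -0.11, -0.20 and -0.22 in siHHEX 1, 2 and 3, and 0.14 and 0.07 in siYAP/TAZ 1 and 2. These values were not tested and carry no correction for GC content. With the correction described below, the median difference was -0.07 over the members and -0.10 over all genes. Median scaling moved the median difference of all genes by 0.16 and the split to 10 higher and 7 lower, where 23.5% and 14.2% of all tested genes were called. Without siYAP/TAZ replicate 2, 4 members were called, all lower, where 408 of all tested genes were higher and 618 lower.

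**Figure D3:**
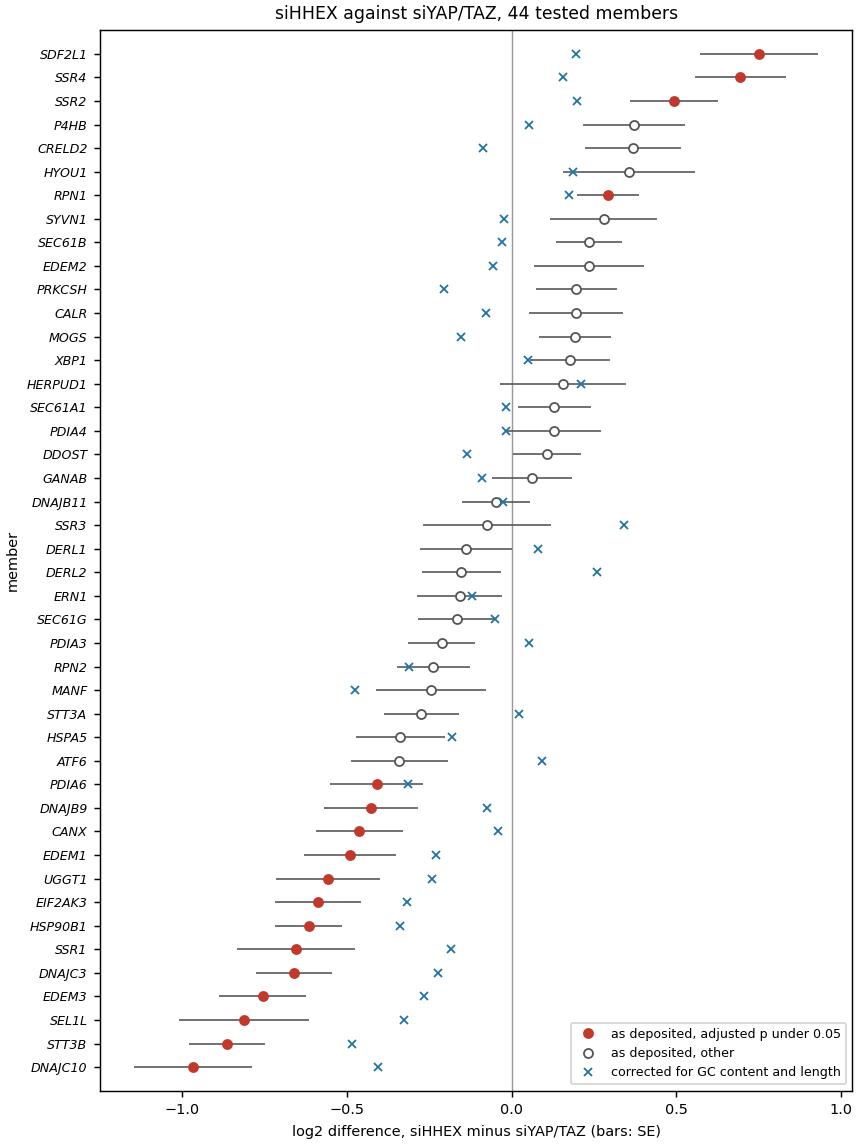
Log2 difference of siHHEX minus siYAP/TAZ for the 44 tested members with standard errors as bars, filled where the adjusted p was under 0.05, and crosses for the same difference after correction for GC content and transcript length. The 4 filled points on the right and the 13 on the left are called, and of these only *STT3B* stayed called after the correction.

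Of 10 tested chaperones of the HSP70 and HSP90 systems and their partners, 1 was higher and 4 were lower in siHHEX against siYAP/TAZ, beside 13.5% and 25.9% of all tested genes. *HSPA5*, the gene of BiP and a standard read-out of the UPR, stood at 142 and 137 FPKM in siNC, 140, 109 and 104 FPKM in siHHEX, 143 and 152 FPKM in siYAP/TAZ and 131 FPKM in siTEAD1/2/3/4. It lay lower in siHHEX than in siYAP/TAZ in every library, by 0.34 in log2, which did not pass the test (SE 0.14, adjusted p = 0.0731) but did without siHHEX replicate 1 (adjusted p = 0.0218). *HSP90B1*, the gene of GRP94, stood at 183 and 167 FPKM in siNC, 135, 126 and 125 FPKM in siHHEX, 188 and 207 FPKM in siYAP/TAZ and 167 FPKM in siTEAD1/2/3/4. It fell by 0.62 in siHHEX against siYAP/TAZ (SE 0.10, adjusted p = 0.00481), with no overlap. *DNAJC10*, the gene of ERdj5, a disulfide reductase with a J domain, had 11.3 and 10.2 FPKM in siNC, 7.87, 9.35 and 5.82 FPKM in siHHEX, 14.5 and 17.1 FPKM in siYAP/TAZ and 11.1 FPKM in siTEAD1/2/3/4. The siHHEX difference of -0.97 (SE 0.18, adjusted p = 0.00594) was the largest of the 44 and was lost without siYAP/TAZ replicate 2 (adjusted p = 0.0548). The other J-domain genes *DNAJC3* and *DNAJB9* were lower too, and *DNAJB11* was not (-0.05, SE 0.10, adjusted p = 0.729). *SDF2L1*, the gene of a partner of ERdj3, went the opposite way, at 66.9 and 70.4 FPKM in siNC, 92.3, 83.9 and 125 FPKM in siHHEX, 67.2 and 50.7 FPKM in siYAP/TAZ and 77.2 FPKM in siTEAD1/2/3/4. It was higher in siHHEX by 0.75 (SE 0.18, adjusted p = 0.0130), and not without siYAP/TAZ replicate 2 (adjusted p = 0.110). *HYOU1*, *MANF* and *CRELD2* did not pass the test, with differences of 0.36, -0.24 and 0.37.

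Of the 3 tested members listed under disulfide formation, 1 was called in siHHEX against siYAP/TAZ, lower, beside 25.9% lower and 13.5% higher over all tested genes. *PDIA6* had 59.0 and 57.9 FPKM in siNC, 44.3, 49.1 and 35.4 FPKM in siHHEX, 58.4 and 55.2 FPKM in siYAP/TAZ and 57.2 FPKM in siTEAD1/2/3/4, and the siHHEX libraries lay below all others (-0.41 against siYAP/TAZ, SE 0.14, adjusted p = 0.0461). This call was lost without either siYAP/TAZ library and without siHHEX replicate 1 or 3, with adjusted p between 0.0758 and 0.165. *P4HB*, the gene of protein disulfide isomerase itself, had 254 and 265 FPKM in siNC, 424, 291 and 402 FPKM in siHHEX, 304 and 266 FPKM in siYAP/TAZ and 329 FPKM in siTEAD1/2/3/4, where siHHEX 2 lay among the siYAP/TAZ libraries (0.37, SE 0.15, adjusted p = 0.0824). Without siHHEX replicate 2, *P4HB* was called higher (0.54, adjusted p = 0.00459). *PDIA4* had 71.6 and 72.1 FPKM in siNC, 84.2, 67.8 and 83.9 FPKM in siHHEX, 81.0 and 63.0 FPKM in siYAP/TAZ and 73.2 FPKM in siTEAD1/2/3/4, with full overlap (0.13, SE 0.14, adjusted p = 0.482). *ERO1LB*, an oxidase that recharges the isomerases, stayed under 1 FPKM in every library and was not tested.

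Of the UPR sensors, *ERN1* and *EIF2AK3* were weakly expressed and *ATF6* lay near the median of all tested genes. *ERN1* had 1.87 and 1.79 FPKM in siNC, 1.33, 1.36 and 1.15 FPKM in siHHEX, 1.78 and 1.32 FPKM in siYAP/TAZ and 1.23 FPKM in siTEAD1/2/3/4. *EIF2AK3* had 2.60 and 2.31 FPKM in siNC, 1.71, 1.34 and 1.77 FPKM in siHHEX, 3.01 and 2.80 FPKM in siYAP/TAZ and 2.26 FPKM in siTEAD1/2/3/4. Of the sensors, *EIF2AK3* was the 1 called between siHHEX and siYAP/TAZ with all libraries (-0.59, SE 0.13, adjusted p = 0.0103), and the call was narrowly lost without siYAP/TAZ replicate 2 (adjusted p = 0.0523). *ATF6* had 6.85 and 6.84 FPKM in siNC, 7.19, 5.94 and 5.16 FPKM in siHHEX, 7.40 and 8.48 FPKM in siYAP/TAZ and 7.10 FPKM in siTEAD1/2/3/4 (-0.34, SE 0.15, adjusted p = 0.0901), and was called lower without siHHEX replicate 1 (-0.45, adjusted p = 0.0486). *XBP1* had 35.4 and 31.2 FPKM in siNC, 41.5, 42.3 and 48.6 FPKM in siHHEX, 40.5 and 37.3 FPKM in siYAP/TAZ and 40.1 FPKM in siTEAD1/2/3/4. All 6 knockdown libraries lay above siNC for *XBP1*, and siHHEX lay above siYAP/TAZ without overlap, although that difference did not pass the test (0.18, SE 0.12, adjusted p = 0.261). One value per gene cannot tell spliced from unspliced *XBP1*.

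Of the 10 tested members with a stress element, 2 were called higher (*CRELD2*, *XBP1*) and 2 lower (*CANX*, *HSP90B1*) in siHHEX against siNC, beside 16% higher and 16.9% lower over all tested genes, and 6 were not called. Against siYAP/TAZ, siHHEX was higher for *SDF2L1*, lower for *CANX*, *HSP90B1* and *DNAJC10*, and not called for the other 6, beside 13.5% higher and 25.9% lower over all tested genes. In siYAP/TAZ against siNC none of the 10 was called by limma, and 1 was higher at an unadjusted p under 0.05.

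Of 8 tested members of ER-associated degradation, 3 were lower and none higher in siHHEX against siYAP/TAZ, beside 25.9% lower and 13.5% higher over all tested genes, also at an unadjusted p under 0.05 in limma (3 lower and 0 higher). After the correction none was called, where 245 of all 10614 genes were higher and 696 lower. At an unadjusted p under 0.05 in limma 0 passed. *SEL1L*, the gene of the adaptor of the ubiquitin ligase HRD1, had 5.57 and 5.59 FPKM in siNC, 4.09, 3.77 and 2.17 FPKM in siHHEX, 6.06 and 6.89 FPKM in siYAP/TAZ and 4.81 FPKM in siTEAD1/2/3/4 (-0.81, SE 0.20, adjusted p = 0.0133, and 0.0925 without siYAP/TAZ replicate 2). *EDEM3*, which trims mannose from proteins to be degraded, had 2.26 and 2.29 FPKM in siNC, 1.32, 1.34 and 1.47 FPKM in siHHEX, 3.45 and 2.61 FPKM in siYAP/TAZ and 1.96 FPKM in siTEAD1/2/3/4 (-0.76, SE 0.13, adjusted p = 0.00539). The siHHEX libraries of both genes lay below all others. *SYVN1*, the gene of HRD1 itself, was not called (0.28, SE 0.16, adjusted p = 0.187). *HERPUD1*, a scaffold of the same ligase, had 15.0 and 17.6 FPKM in siNC, 29.3, 18.3 and 23.2 FPKM in siHHEX, 23.2 and 18.5 FPKM in siYAP/TAZ and 18.4 FPKM in siTEAD1/2/3/4. *DERL1*, a derlin of the retrotranslocation machinery, had 38.1 and 41.4 FPKM in siNC, 30.5, 30.7 and 24.5 FPKM in siHHEX, 34.0 and 28.9 FPKM in siYAP/TAZ and 23.3 FPKM in siTEAD1/2/3/4. Both *HERPUD1*, above siNC in each knockdown library, and *DERL1*, below it in each, overlapped between siHHEX and siYAP/TAZ (adjusted p = 0.525 and 0.440). *DERL3* was listed at 0 in 7 of the 8 libraries and was not tested.

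Subunits of the TRAP complex, which sits at the translocon, differed in opposite directions in siHHEX as deposited, and none of these differences was called once GC content and length were corrected for. *SSR4* had 34.3 and 37.4 FPKM in siNC, 56.4, 44.8 and 59.7 FPKM in siHHEX, 32.2 and 32.9 FPKM in siYAP/TAZ and 36.6 FPKM in siTEAD1/2/3/4. *SSR2* had 147 and 145 FPKM in siNC, 237, 183 and 248 FPKM in siHHEX, 160 and 153 FPKM in siYAP/TAZ and 166 FPKM in siTEAD1/2/3/4. *SSR1* had 18.6 and 18.4 FPKM in siNC, 12.7, 12.0 and 8.38 FPKM in siHHEX, 15.6 and 19.9 FPKM in siYAP/TAZ and 14.6 FPKM in siTEAD1/2/3/4. For each of these 3 genes the siHHEX libraries lay outside the range of all other libraries, above it for *SSR4* and *SSR2* and below it for *SSR1*. Against siYAP/TAZ, *SSR4* was higher by 0.69 (SE 0.14, adjusted p = 0.00746) and *SSR2* by 0.49 (SE 0.13, adjusted p = 0.0199), and *SSR1* was lower, at -0.65 (SE 0.18, adjusted p = 0.0202). After the correction these differences were 0.16, 0.20 and -0.18 (adjusted p = 0.292, 0.213 and 0.438), and *SSR4* against siNC turned to -0.026. Without siYAP/TAZ replicate 2 all 3 calls were lost (adjusted p = 0.0507 for *SSR4*, 0.109 for *SSR2* and 0.150 for *SSR1*), and that of *SSR2* also without siYAP/TAZ replicate 1 or siHHEX replicate 1 (0.0631 and 0.0597). *SSR3*, at 40.7 and 39.3 FPKM in siNC, 21.1, 35.0 and 24.2 FPKM in siHHEX and 30.4 and 25.1 FPKM in siYAP/TAZ, overlapped between these knockdowns (-0.08, SE 0.19, adjusted p = 0.771). The *SSR4* to *SSR1* ratio within a library was 1.84 and 2.03 in siNC, 4.45, 3.75 and 7.12 in siHHEX, 2.06 and 1.65 in siYAP/TAZ and 2.51 in siTEAD1/2/3/4. The *SSR2* to *SSR3* ratio did not set siHHEX apart, at 3.61 and 3.69 in siNC, 11.2, 5.21 and 10.2 in siHHEX, 5.25 and 6.11 in siYAP/TAZ and 5.76 in siTEAD1/2/3/4. *SEC61B*, a subunit of the channel, had 191 and 175 FPKM in siNC, 206, 203 and 208 FPKM in siHHEX, 185 and 164 FPKM in siYAP/TAZ and 178 FPKM in siTEAD1/2/3/4, and *SEC61A1*, *SEC61B* and *SEC61G* did not pass the test (adjusted p = 0.365, 0.0853 and 0.272).

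**Figure D4:**
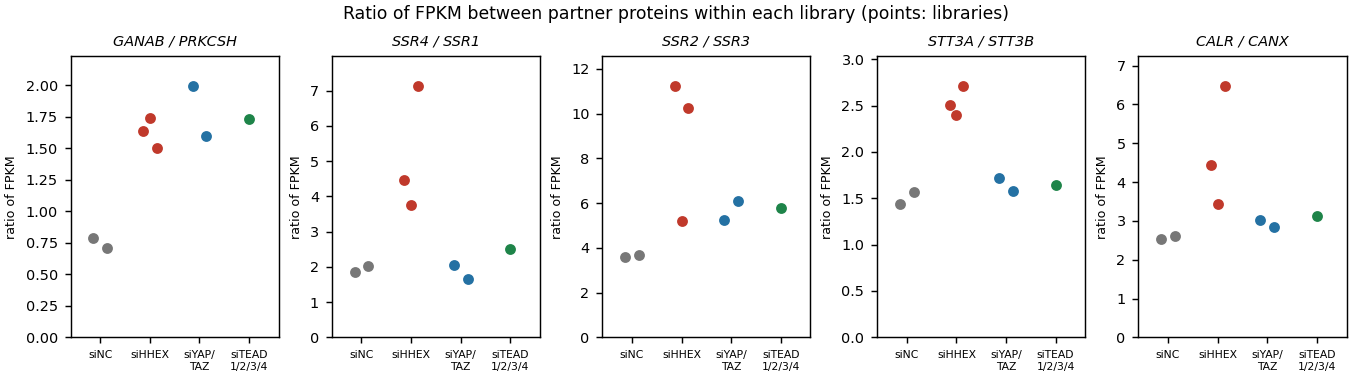
Ratio of FPKM between 5 pairs of genes for partner proteins, 1 point per library, on linear axes that start at 0. The *GANAB* to *PRKCSH* ratio is raised in all 6 knockdown libraries, and the *SSR4* to *SSR1*, *STT3A* to *STT3B* and *CALR* to *CANX* ratios are highest in the 3 siHHEX libraries, whereas the *SSR2* to *SSR3* ratio of siHHEX 2, at 5.21, lies below those of siYAP/TAZ and siTEAD1/2/3/4.

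The oligosaccharyltransferase exists in forms that differ in their catalytic subunit, STT3A, which acts while the protein enters the ER, and STT3B, which acts afterwards. *STT3B*, on chr3:31532638-31637616 (GRCh38, plus strand), had 29.1 and 28.2 FPKM in siNC, 16.3, 15.0 and 14.0 FPKM in siHHEX, 28.4 and 27.9 FPKM in siYAP/TAZ and 25.5 FPKM in siTEAD1/2/3/4. The siHHEX libraries lay below all others, at a mean of 15.1 ± 1.16 FPKM (SD, n = 3) against 28.2 ± 0.346 FPKM (SD, n = 2) in siYAP/TAZ (-0.86 in log2, SE 0.12, adjusted p = 0.00406). *STT3A* had 42.0 and 44.2 FPKM in siNC, 40.9, 36.0 and 37.8 FPKM in siHHEX, 48.9 and 43.99 FPKM in siYAP/TAZ and 42.1 FPKM in siTEAD1/2/3/4, a difference of -0.27 that did not pass the test (SE 0.11, adjusted p = 0.0814). The *STT3A* to *STT3B* ratio was 1.44 and 1.57 in siNC, 2.51, 2.40 and 2.71 in siHHEX and between 1.57 and 1.72 in the other 3 libraries. *DDOST* had 201 and 200 FPKM in siNC, 251, 213 and 251 FPKM in siHHEX, 223 and 218 FPKM in siYAP/TAZ and 208 FPKM in siTEAD1/2/3/4 (adjusted p = 0.419). *RPN1* had 160 and 166 FPKM in siNC, 175, 166 and 180 FPKM in siHHEX, 144 and 139 FPKM in siYAP/TAZ and 168 FPKM in siTEAD1/2/3/4. It was higher in siHHEX than in siYAP/TAZ by 0.29 (SE 0.09, adjusted p = 0.0362), a call that leaving out either siYAP/TAZ library or siHHEX replicate 1 or 3 ended (adjusted p from 0.0636 to 0.149), and siHHEX lay close to siNC. *RPN2*, a further shared subunit, did not pass the test (-0.24, SE 0.11, adjusted p = 0.112).

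GC content moved with these differences. Transcript GC content of the 44 tested members ran from 37.3% to 65.1% with a median of 46.6%. The members called higher in siHHEX against siNC had 49.5% to 61.1% GC and those called lower 38.4% to 45.9%, and against siYAP/TAZ the ranges were 50.2% to 65.1% and 37.3% to 45.5%, with no overlap in either comparison. All 22 members below the median had a negative difference of siHHEX from siNC, and 20 of the 22 at or above it a positive one, a split chosen after seeing the data. Across the 44 members, Spearman's rho of the change with GC content was 0.83, 0.70 and 0.82 in siHHEX 1, 2 and 3, 0.20 and -0.21 in siYAP/TAZ and 0.64 in siTEAD1/2/3/4, where each change uses the same siNC mean. Over all tested genes the rho was 0.68, 0.60 and 0.76 in siHHEX, 0.06 and -0.05 in siYAP/TAZ and 0.30 in siTEAD1/2/3/4, so the members followed a trend of the whole library. GC content and length explained 47.3%, 34.3% and 57.3% of the variance of all genes' changes in siHHEX 1, 2 and 3.

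With that trend taken off each library, *GANAB* stayed higher and *STT3B* lower in siHHEX against siNC, where 6.13% of the tested genes were called in either direction. *GANAB* and *MOGS* were called higher in siYAP/TAZ, where 12.5% of the tested genes were called. *STT3B* was the 1 member called between siHHEX and siYAP/TAZ (-0.48, adjusted p = 0.0310), where 8.87% were called. Other members named above as different between siHHEX and siYAP/TAZ had adjusted p from 0.0543 (*HSP90B1*) to 0.814 (*CANX*) after this correction. The rho of the siHHEX changes with GC content was then 0.20, 0.11 and 0.26. Whether the trend arose in the cells or in the making of the libraries was not tested.

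**Figure D5:**
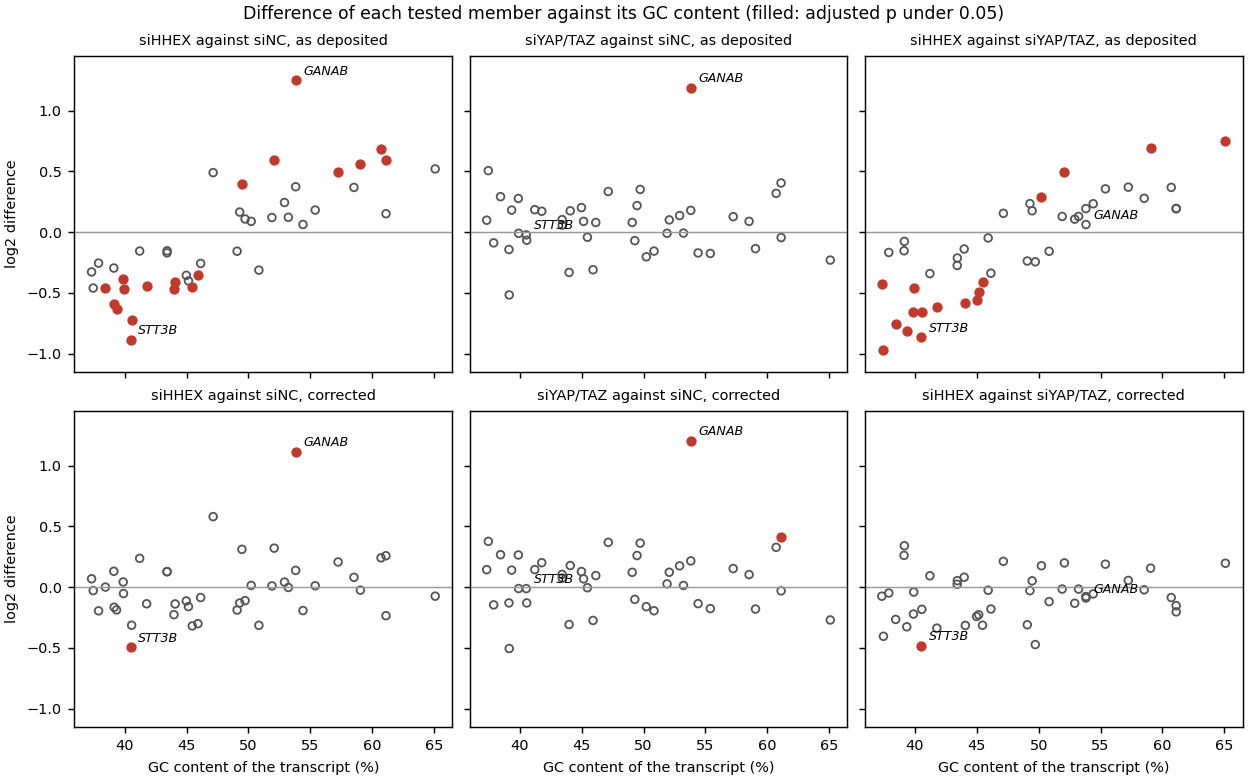
Log2 difference of each of the 44 tested members against the GC content of its transcript in 3 comparisons, as deposited (top) and after correction for GC content and length (bottom), filled where the adjusted p was under 0.05. In siHHEX the points rise from left to right and less so after the correction, while *GANAB* stays at 1.11 in siHHEX and 1.20 in siYAP/TAZ against siNC.

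Outside the members, 105 of 109 other listed ER genes were tested, on lists drawn up by function with earlier results of these data known. In siHHEX against siNC, 17 rose and 13 fell, a share near the 16% higher and 16.9% lower of all tested genes. In siYAP/TAZ 4 rose and none fell (10 and 6 at an unadjusted p under 0.05 in limma), beside 6.15% and 2.13% of all tested genes. In siHHEX against siYAP/TAZ 19 were higher and 19 lower, beside 13.5% and 25.9%. With median scaling the last split became 31 and 7, beside 23.5% and 14.2% of all tested genes, and that of siHHEX against siNC 21 and 10, beside 20.6% and 13.7%. After correction for GC content and length, 6 rose in siHHEX against siNC, where 334 of all 10614 genes were higher and 317 lower. In siYAP/TAZ 5 rose, beside 979 higher and 349 lower over all genes. None fell in either comparison (11 and 7 were lower at an unadjusted p under 0.05 in limma). Between the knockdowns 4 were higher and 1 lower in siHHEX, where 245 of all genes were higher and 696 lower.

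Other UPR signalling genes had 15 of 17 tested, with 6 higher and 1 lower in siHHEX against siNC and a median log2 difference of 0.59, against -0.01 over all tested genes, of which 16% were called higher and 16.9% lower. After the correction none of the list was called, where 334 of all 10614 genes were higher and 317 lower. At an unadjusted p under 0.05 in limma, 5 of the list were higher and 2 lower. *TRIB3*, a target of ATF4 and CHOP, had 11.7 and 11.7 FPKM in siNC, 27.7, 19.1 and 24.8 FPKM in siHHEX, 16.1 and 12.0 FPKM in siYAP/TAZ and 17.3 FPKM in siTEAD1/2/3/4. It rose against siNC by 0.95 (SE 0.17, adjusted p = 0.00789), and by 0.58 after the correction (adjusted p = 0.0541). *TRAF2*, an adaptor of IRE1, rose by 0.63 (adjusted p = 0.00840), and *PPP1R15B*, the constitutive partner of the eIF2α phosphatase, fell by 0.65 (adjusted p = 0.00926). Neither passed after the correction (adjusted p = 0.153 and 0.0740). None of these 3 calls held without siNC replicate 1 (adjusted p from 0.0919 to 0.116) or without siNC replicate 2 (0.0772 to 0.0872).

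Folding and oxidation genes outside the members had 2 higher and 3 lower of 24 tested in siHHEX against siNC, beside 16% and 16.9% of all tested genes. *PRDX4*, an ER peroxiredoxin, had 75.9 and 67.8 FPKM in siNC, 131, 120 and 136 FPKM in siHHEX, 93.5 and 78.0 FPKM in siYAP/TAZ and 97.7 FPKM in siTEAD1/2/3/4. It rose in siHHEX by 0.83 against siNC (SE 0.12, adjusted p = 0.00458), with 0.60 after the correction (adjusted p = 0.0221), and lost the call without siNC replicate 1 or 2 (adjusted p = 0.0746 and 0.0697). *SEC63* and *HSPA13*, partners of BiP and a further HSP70, were lower in siHHEX than in siYAP/TAZ by -0.72 and -0.66 (adjusted p = 0.00781 and 0.0144), and not after the correction (0.146 and 0.454). In quality control and degradation, 4 of 22 were higher and 4 lower against siYAP/TAZ, beside 13.5% and 25.9% of all tested genes. The glycanase gene *NGLY1*, *FAM8A1* and *CCDC47* were lower, at -0.72, -0.61 and -0.90 (adjusted p = 0.00760, 0.00869 and 0.00592), and not after the correction (0.0824, 0.293 and 0.0507). In targeting, signal peptidase and oligosaccharyltransferase genes, none of 21 was higher (0 also at an unadjusted p under 0.05 in limma) and 5 were lower, a share near the 25.9% of all tested genes. Among the 5 were *SRP54* and *SRP72* of the signal recognition particle and the translocon partner *SEC62* (-0.65, -0.57 and -0.68, adjusted p = 0.0101, 0.0115 and 0.0201), which were not called after the correction (0.0743, 0.302 and 0.428). After it, 1 gene of this list was higher, the signal peptidase gene *SPCS1* (0.42, adjusted p = 0.0278), named after its value was seen. Of all 10614 genes 245 were then higher and 696 lower.

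Dolichol-linked glycan assembly builds the glycan that the oligosaccharyltransferase uses. Of its 23 genes, 8 were higher and 2 lower in siHHEX against siYAP/TAZ, beside 13.5% and 25.9% of all tested genes. After the correction 3 were higher and 0 lower, where 245 of all 10614 genes were higher and 696 lower. *MPDU1*, needed for the use of dolichol-linked sugars, had 42.9 and 45.9 FPKM in siNC, 73.7, 66.4 and 88.8 FPKM in siHHEX, 42.3 and 36.9 FPKM in siYAP/TAZ and 43.2 FPKM in siTEAD1/2/3/4. The siHHEX libraries lay above all others (0.92 against siYAP/TAZ, SE 0.14, adjusted p = 0.00426, and 0.58 with adjusted p = 0.0230 after the correction). The mannosyltransferase gene *ALG3* and the phosphatase gene *DOLPP1* were higher by 0.60 and 0.71 (adjusted p = 0.00681 and 0.00794), and not after the correction (0.316 and 0.0603). Except for *MPDU1*, *CCDC47* and *PPP1R15B*, the named genes of these lists lost their call against siYAP/TAZ without siYAP/TAZ replicate 2.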

How the data were processed

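Libraries were sequenced on an Illumina HiSeq instrument from Trizol RNA, and the submitters' processing notes name Trimmomatic 0.36, HISAT2 2.0.5, Cufflinks 2.2.1 and HTSeq 0.9.1. The genome build and annotation were not given in the sources used here. The deposited values are FPKM per gene, computed by the authors for each library. Read counts are not given, so depth is unknown, and no interval of counting error was computed. From the steps between low values, depths were estimated at 0.927 to 1.11 of that of siNC 1.

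The 8 libraries were grouped by their labels. Log2(FPKM + 1) values were fitted with limma 3.58.1 (R 4.3.3) over all 4 groups with an intensity trend, and p-values were adjusted by Benjamini-Hochberg over the 10677 genes that reached 1 FPKM in 2 or more libraries. The other 9353 rows were not tested. A call is an adjusted p under 0.05. Fold changes are on the log2(FPKM + 1) scale, which understates those of low genes. For the GC content and length correction, each library's change was fitted with natural splines (4 degrees of freedom) on transcript values from GENCODE (GRCh38), held for 99.41% of the tested genes. Tables were handled with Python 3.11.15, numpy 2.4.6, pandas 2.3.3, scipy 1.17.1 and matplotlib 3.10.9.

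The fit was tested on simulated data with 100 genes changed by 0.5 and 100 by 1 in log2 in the same run. At a change of 1 in log2 it recovered 62% for siHHEX against siNC, 58% for siYAP/TAZ against siNC and 70% for siHHEX against siYAP/TAZ. At a change of 0.5 it recovered 10%, 4% and 13%. False calls were 8, 2 and 4 in these comparisons, at either size of change.

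Members and gene lists were chosen with earlier results of these data known. Values in each library are given for *GANAB*, the UPR sensors with *XBP1*, and in each role the 2 most abundant members and the 2 with the largest difference in any replicated comparison. From each other list up to 3 genes with the lowest p in siHHEX against siYAP/TAZ are named. Values of other members (such as *PRKCSH*, *CANX*, *SSR3* and *STT3A*) and the subunit ratios were chosen after their values were seen. Alternatives were a pseudocount of 0.1, no filter, median scaling, only the groups compared, a replicate block, the GC content and length correction, a 1.5-fold threshold and leaving out each library. Rows named by a date (27) were not renamed, and the search for C-terminal retention signals was not run.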

Additional observations from a re-analysis of the deposited data

How the results depend on the processing

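*GANAB* in siHHEX against siNC stayed called in all 12 alternatives run, and the siTEAD1/2/3/4 count of 2 members past 1.5-fold did not change. As *GANAB* was listed for its rise against siNC, its calls against siNC are a description only. The sign of *SSR4* in siHHEX against siNC reversed to -0.026 with the GC content and length correction, and to -0.028 with the replicate block and that correction. For siHHEX against siNC, 19 members were called, against 9 without a filter, 2 with the GC content and length correction, 8 with a 1.5-fold threshold and 1 to 25 when 1 library was left out. Of the other ER genes 30 were called, against 13 without a filter, 6 with the correction and 1 to 52 when 1 library was left out. For siYAP/TAZ against siNC, 1 member was called, against 4 with only the groups compared, 2 with the correction and 0 to 1 when 1 library was left out. Of the other ER genes 4 were called, against 1 without a filter, 9 with only the groups compared and 0 to 6 when 1 library was left out. For siHHEX against siYAP/TAZ, 17 members were called, against 8 without a filter, 1 with the correction, 10 with a 1.5-fold threshold and 4 to 23 when 1 library was left out. Of the other ER genes 38 were called, against 23 without a filter, 25 with only the groups compared, 5 with the correction, 21 with a 1.5-fold threshold and 5 to 56 when 1 library was left out. Of all genes, 3518 were called in siHHEX against siNC, 1907 of 16276 without a filter and 651 of 10614 with the correction. In siYAP/TAZ against siNC 884 were called, 320 without a filter, 1759 with only the groups compared and 1328 with the correction. In siHHEX against siYAP/TAZ 4200 were called, 3367 without a filter, 2994 with only the groups compared and 941 with the correction. Leaving out 1 siHHEX library gave 2109 to 4839 calls against siNC and 2964 to 5161 against siYAP/TAZ. Median scaling moved the median difference of all genes by 0.06, -0.10 and 0.16 in these 3 comparisons. The cause of these shifts was not tested.

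The labels number the libraries, but same-numbered libraries did not deviate together (correlations from -0.07 to 0.02), so the numbers were not taken as a pairing. Only siHHEX had a library numbered 3, so the replicate block took up siHHEX 3, which then added nothing to any difference. The members' median difference of siHHEX from siNC was -0.136 with the block and -0.136 without siHHEX replicate 3. Calls lost with the block, here and with the correction, cannot be told apart from the loss of that library. With no block and without siHHEX replicate 3, 13 members, 23 other ER genes and 2514 of all tested genes were called against siNC. With the replicate block, 7 members and 18 other ER genes were called in siHHEX against siNC, where 2062 of all 10677 tested genes were. In siHHEX against siYAP/TAZ 11 members were called, where 2937 of all tested genes were. With the replicate block and the GC content and length correction, 1 member and 0 other ER genes were called in siHHEX against siNC. In siHHEX against siYAP/TAZ, 0 members and 0 other ER genes were called. For these 3 counts of 0, limma gave 29, 6 and 22 at an unadjusted p under 0.05. Of all 10614 genes, 155 were called in siHHEX against siNC and 274 in siHHEX against siYAP/TAZ. *STT3B* was then at an adjusted p of 0.0710. A lone library left in a group was assumed to vary like the other groups. With 2 or 3 libraries a group, changes of 0.5 in log2 were seldom recovered in simulated data, so a missing call does not show that levels were equal.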

Other observations

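Genes outside the members with a gap like that of *GANAB* between all 6 knockdown libraries and both siNC libraries, chosen after their values were seen, were *TPM4* (rank 1, 1.06 on the log2 scale), *ID3* (rank 3, 0.996) and *HABP4* (rank 4, 0.870). *TPM4* encodes a tropomyosin and *ID3* an inhibitor of DNA binding by helix-loop-helix factors, and neither is an ER gene. All such gaps share the same 2 siNC libraries, whose values set the lower side of each gap.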
